A study of Homo sapiens with 6 samples.

Results

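The 10 genes described here were followed in T24 cells, a human bladder cancer cell line, after knockdown of UBC9. They were the interleukin genes IL7, IL15, TSLP, IL12A, IL23A, IL24 and IL32 and the receptor genes IL7R, IL15RA and IL4R. They were chosen by their symbols as interleukins and receptors outside the IL-1 and IL-6 families, and all 10 were found among the 58174 genes listed. UBC9 is the conjugating enzyme that attaches SUMO proteins to their targets. The shRNA-UBC9 cells carried a lentiviral shRNA against UBC9 and the shRNA-NC cells a scrambled control shRNA. Per the methods, infected cells were selected with puromycin and grown as a stable line, and the sequence of 1 shRNA is given. RNA-seq covered 3 samples per group, which the sources used here do not describe as separate cultures, so p-values may measure technical spread only.

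Interleukins are secreted proteins through which leukocytes and epithelial cells signal to each other. Most of those followed here bind receptors made of a private chain and a shared chain, and these receptors pass the signal to JAK kinases and STAT transcription factors. IL-7, IL-15 and TSLP act mainly on lymphocytes and dendritic cells, and TSLP is best known as an alarm signal of epithelia.

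Levels are given as RPKM. RPKM values are reads counted in a gene, divided by its length and by the mapped reads of the sample. Relative depth, read from the steps in which low values rise, ranged from 0.945 to 1.21 of that of shRNA-NC replicate 1. The keratin genes KRT7, KRT8, KRT18 and KRT19 were abundant, whereas KRT5 was listed at 0 in every sample and the urothelial gene UPK2 did not exceed 0.125 RPKM. The 8 epithelial and urothelial markers summed to between 943 and 1120 RPKM in shRNA-NC and to between 430 and 568 RPKM in shRNA-UBC9. The abundant keratin genes made up most of these sums. Of the 6 that were tested, 5 were lower with an adjusted p-value below 0.05, as were 18.0% of all tested genes. EPCAM was not lower, at 0.412, 0.986 and 0.575 RPKM in shRNA-NC and 2.51, 1.27 and 0.732 RPKM in shRNA-UBC9. Its groups overlapped, with a log2 fold change of 0.996 (limma adjusted p = 0.0984). The part of these marker differences in the results was not tested. Of 9 leukocyte markers, MS4A1 was among those listed at 0 in every sample, and the list summed to 0.747 to 1.42 RPKM in shRNA-NC and 0.792 to 1.93 RPKM in shRNA-UBC9. PTPRC, CD3E and LYZ were listed at 0 in shRNA-NC replicate 1 and shRNA-UBC9 replicate 3 and were detected in the other 4 libraries. Other markers of the list were present in that pair, with CD14 at 0.657 and 0.752 RPKM, NKG7 at 0.0717 RPKM in shRNA-NC replicate 1 and CSF1R at 0.0344 RPKM in shRNA-UBC9 replicate 3. Without CD14 the list summed to 0.0894 and 0.0407 RPKM in that pair and to 0.711 to 1.23 RPKM in the other 4 libraries. The part of leukocyte RNA in the results was not tested. Differences in the number of expressing cells and in RNA per cell cannot be told apart in such bulk samples.

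Groups were compared with limma on log2(RPKM + 0.1) across the 12428 genes that reached 0.5 RPKM in at least 3 of the 6 samples. A gene was called a DEG with an adjusted p-value below 0.05 and an absolute log2 fold change over 1. Of the 10 genes, 9 entered the test, and TSLP did not. IL23A, IL24 and IL32 were called higher in shRNA-UBC9 and no gene was called lower, where 5.20% of all tested genes were called higher and 2.70% lower. IL23A, IL24 and IL32 were below 0.5 RPKM in all shRNA-NC samples and entered the test through their shRNA-UBC9 values alone, so for them the filter and the call are not independent. With no minimum fold change, IL7, IL15RA and IL4R also passed as higher, which made 6 genes, against a background of 18.8% of tested genes higher and 18.0% lower. The groups did not overlap for these 6 genes, all higher in shRNA-UBC9, where 25.7% of tested genes were without overlap and higher and 25.4% without overlap and lower. The median log2 fold change was 0.775 over the 9 tested genes and 0.0048 over all tested genes. This median of the 9 and both counts of 6 include IL23A, IL24 and IL32, so they are not independent of the filter either. The 10 genes were also chosen with earlier results of these data known.

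**Figure D1:**
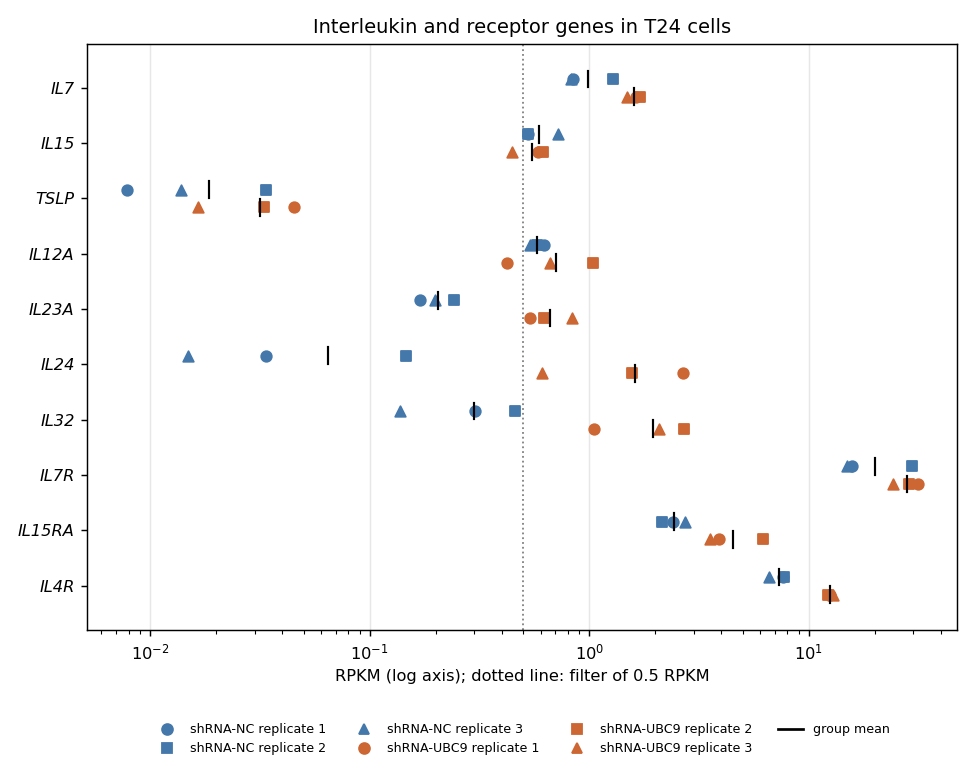
RPKM of each interleukin and receptor gene in each sample, on a log axis, with shRNA-NC in blue and shRNA-UBC9 in orange. Marker shapes give the replicate, black lines the group mean and the dotted line the filter of 0.5 RPKM. The shRNA-UBC9 samples lie above the shRNA-NC samples for IL7, IL23A, IL24, IL32, IL15RA and IL4R and overlap them for IL15, TSLP, IL12A and IL7R.

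In shRNA-NC the levels per gene length ran in the order IL7R, IL4R, IL15RA, IL7, IL15, IL12A, IL32, IL23A, IL24 and TSLP. The mean levels were 20.0 RPKM for IL7R, 7.31 RPKM for IL4R and 2.42 RPKM for IL15RA, and the highest ligand, IL7, was at 0.984 RPKM. The sample ranges of neighbours in this order overlapped for IL15 with IL12A, for IL32 with IL23A and for IL24 with TSLP. In shRNA-UBC9 the 3 receptor genes again came first, and IL32, IL24 and IL7 followed with overlapping ranges. IL7R ranked 1754 among the 12428 tested genes by its mean level over all samples, while IL23A ranked 12403.

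IL24 had the largest log2 fold change of the 10 genes. It encodes a cytokine of the IL-10 family that signals through receptors containing IL20RB. IL24 was at 0.0339, 0.146 and 0.0149 RPKM in the shRNA-NC samples and at 2.66, 1.56 and 0.609 RPKM in the shRNA-UBC9 samples. The groups did not overlap, shRNA-UBC9 replicate 3 was the lowest of its group, and shRNA-NC replicate 2 was the highest of its own. The log2 fold change was 3.25 (standard error, SE, 0.509, limma adjusted p = 0.00211), which ranked 90 among all tested genes. Reads behind these values could be recovered as whole numbers from the steps of the RPKM scale. They were 2, 10 and 1 in shRNA-NC and 190, 109 and 34 in shRNA-UBC9, a depth-adjusted ratio of 25.3 (95% exact interval 14.6 to 48.0, counting error only). Its log2 fold change was 4.63 with a pseudocount of 0.01 and 1.22 with a pseudocount of 1, so its size depends on how values near 0 are handled, while the call was kept.

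IL24 overlaps FCMR, a gene of the opposite strand that encodes the Fc receptor for IgM. FCMR was at 0.243, 0.750 and 0.164 RPKM in shRNA-NC and at 1.10, 0.701 and 0.438 RPKM in shRNA-UBC9, with overlapping groups and a log2 fold change of 0.916 (limma adjusted p = 0.158). The counting is not stated to use strand, so reads of the pair cannot be told apart where the genes overlap. IL20, the nearest coding gene upstream, was listed at 0 in 5 of the 6 samples, and the related IL10 and IL19 were listed at 0 in all of them.

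IL32, which encodes a cytokine with no close relatives that is expressed by lymphocytes and by epithelial cells under inflammatory stimulation, rose as well. It was at 0.303, 0.459 and 0.138 RPKM in shRNA-NC and at 1.05, 2.71 and 2.08 RPKM in shRNA-UBC9. Every shRNA-UBC9 sample was above every shRNA-NC sample, and replicate 1 was the lowest of the shRNA-UBC9 group. The log2 fold change was 2.35 (SE 0.395, limma adjusted p = 0.00288). Recovered reads were 29, 51 and 15 in shRNA-NC and 122, 306 and 188 in shRNA-UBC9.

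IL23A encodes the subunit that joins the product of IL12B to form IL-23. It was at 0.169, 0.243 and 0.199 RPKM in shRNA-NC and at 0.537, 0.622 and 0.836 RPKM in shRNA-UBC9. The groups did not overlap, and the log2 fold change was 1.32 (SE 0.254, limma adjusted p = 0.00511). The level stayed low, with 6 to 10 recovered reads per library in shRNA-NC and 23 to 28 in shRNA-UBC9. IL23A fell short of the fold cutoff with a pseudocount of 1, at 0.464, and with quantile normalization, at 0.981. STAT2 lies 1187 bases away on the opposite strand and was at 7.05 to 8.08 RPKM in shRNA-NC and at 10.5 to 20.6 RPKM in shRNA-UBC9. PAN2 lies closer on the other side, 121 bases away and also on the opposite strand. It was at 2.19 to 3.10 RPKM in shRNA-NC and at 1.95 to 2.61 RPKM in shRNA-UBC9. Its log2 fold change was -0.18 (limma adjusted p = 0.402). The IL12B gene was listed at 0 in 5 samples and at 0.013 RPKM in shRNA-UBC9 replicate 3, so the partner subunit of IL-23 was near the limit of detection in both groups.

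IL12A, whose product pairs with that of IL12B in IL-12, did not pass the test. It was at 0.624, 0.580 and 0.536 RPKM in shRNA-NC and at 0.421, 1.04 and 0.660 RPKM in shRNA-UBC9. The shRNA-UBC9 samples lay on both sides of the shRNA-NC samples. Its log2 fold change was 0.178 (95% interval -0.479 to 0.834, limma adjusted p = 0.656), and it was -0.109 without shRNA-UBC9 replicate 2. The antisense gene IL12A-AS1 did not exceed 0.031 RPKM.

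IL7, which supports the survival of lymphocytes, was at 0.840, 1.29 and 0.828 RPKM in shRNA-NC and at 1.63, 1.71 and 1.48 RPKM in shRNA-UBC9. All shRNA-UBC9 samples were above all shRNA-NC samples, and shRNA-NC replicate 2 came closest to them. Its log2 fold change of 0.678 (SE 0.184, limma adjusted p = 0.0219) was below the cutoff of 1. The adjusted p-value was 0.0716 without shRNA-NC replicate 1, 0.0795 without shRNA-NC replicate 3 and 0.0728 without shRNA-UBC9 replicate 2. ZC2HC1A, which overlaps IL7 on the opposite strand, was at 3.52 to 4.40 RPKM in shRNA-NC and at 2.83 to 3.08 RPKM in shRNA-UBC9, so it did not move in the same direction.

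IL15 supports natural killer cells and memory T cells and is usually presented to them on the surface of another cell by IL15RA. It was at 0.529, 0.525 and 0.718 RPKM in shRNA-NC and at 0.586, 0.617 and 0.446 RPKM in shRNA-UBC9. The groups overlapped, and the log2 fold change was -0.086 (95% interval -0.582 to 0.409, limma adjusted p = 0.782). Its sign turned without shRNA-NC replicate 3, to 0.042, and without shRNA-UBC9 replicate 3, to 0.034. With 458 recovered reads in shRNA-NC and 436 in shRNA-UBC9, the depth-adjusted ratio was 0.941 (95% exact interval 0.823 to 1.07, counting error only).

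IL15RA itself was at 2.40, 2.14 and 2.73 RPKM in shRNA-NC and at 3.88, 6.19 and 3.55 RPKM in shRNA-UBC9. The groups did not overlap, and replicate 2 stood above the other shRNA-UBC9 samples. Its log2 fold change of 0.844 (SE 0.202, limma adjusted p = 0.0132) was below the cutoff and ranged from 0.603 to 0.996 with each sample left out in turn. Within each sample, the ratio of IL15RA to IL15 was between 3.80 and 4.54 in shRNA-NC and at least 6.63 in shRNA-UBC9, without overlap. On the log2 scale the ratio was higher by 0.930 in shRNA-UBC9 (p = 0.1 in a two-sided exact permutation test, which cannot go lower with 3 samples per group). IL2RB, which a cell needs to respond to IL-15, had at most 2 recovered reads in any library.

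IL4R, the chain shared by the receptors for IL-4 and IL-13, had the smallest standard error of the 9 tested genes. It was at 7.61, 7.73 and 6.60 RPKM in shRNA-NC and at 12.5, 12.2 and 13.0 RPKM in shRNA-UBC9. The groups were well separated, and the log2 fold change of 0.775 (95% interval 0.564 to 0.987, limma adjusted p = 0.000616) lay below the cutoff with its whole interval. Its fold change ranged from 0.704 to 0.816 over all alternatives, and its adjusted p-value did not exceed 0.005.

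IL7R encodes the chain shared by the receptors for IL-7 and TSLP and was the most abundant of the 10 genes. It was at 15.7, 29.5 and 14.9 RPKM in shRNA-NC and at 31.4, 28.7 and 24.1 RPKM in shRNA-UBC9. Replicate 2 of shRNA-NC lay within the shRNA-UBC9 range, so the groups overlapped. Its log2 fold change was 0.551 (95% interval -0.007 to 1.11, limma adjusted p = 0.110), and it was 0.865 (adjusted p = 0.00363) without shRNA-NC replicate 2. The ratio of IL7R to IL7 was 18.7, 22.9 and 18.0 in shRNA-NC and 19.3, 16.8 and 16.3 in shRNA-UBC9, and these ranges overlapped (two-sided exact permutation test, p = 0.5).

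TSLP was close to 0 in all samples. It was at 0.00782, 0.0337 and 0.0138 RPKM in shRNA-NC and at 0.0453, 0.0331 and 0.0166 RPKM in shRNA-UBC9. These values stand for 1, 5 and 2 reads and for 7, 5 and 2 reads, and the groups overlapped. The depth-adjusted ratio of shRNA-UBC9 to shRNA-NC was 1.73 (95% exact interval 0.677 to 4.76, counting error only), so a difference of this size was not detectable at this depth. CRLF2, which joins IL7R in the TSLP receptor, had at most 11 recovered reads in any library.

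**Figure D2:**
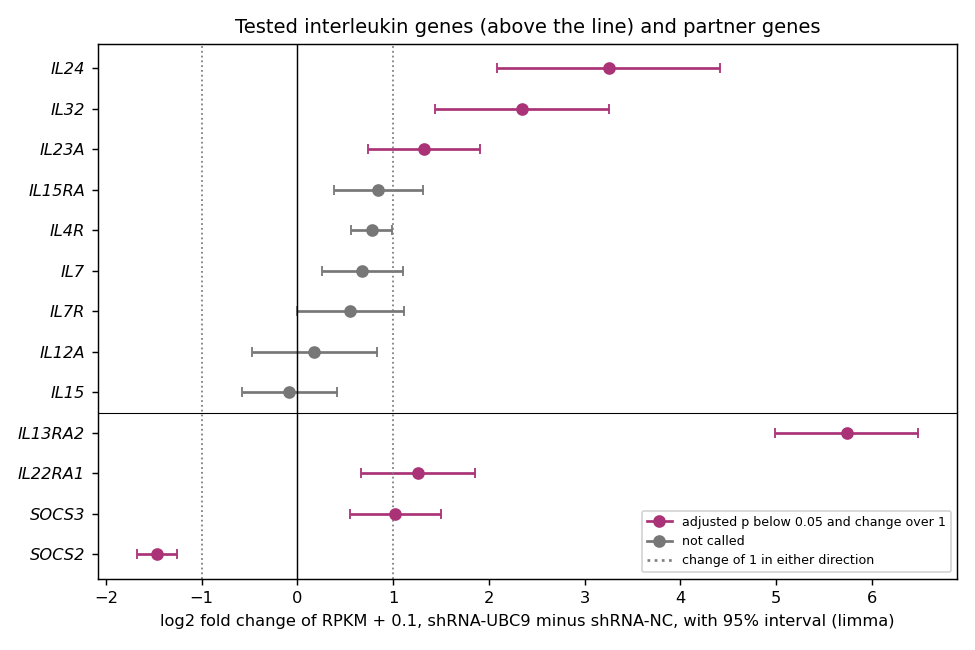
Log2 fold changes between shRNA-UBC9 and shRNA-NC with 95% intervals from limma, for the 9 tested interleukin and receptor genes (above the line) and for 4 called partner genes (below it). Purple marks DEGs and grey other tested genes. IL24 at 3.25, IL32 at 2.35 and IL23A at 1.32 pass the cutoff among the 9 genes, while IL13RA2 at 5.74 lies highest of all genes shown.

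The promoters of these genes are shown because IL23A, IL24 and IL32 were called together while IL12A was not. RefSeq windows of 250 bases before the start site (GRCh38.p14) were present for 8 of the 10 genes, in 14 windows, and not for IL7 or IL15. They were searched on both strands for AP-1 (TGANTCA), an interferon-response core (GAAA, any 2 bases and GAAA), a STAT site (TTCNNNGAA) and the NF-kappaB consensus. A selection is shown, 5′ to 3′ on the strand of the gene and in capitals where the letters matched. The windows of IL23A, IL24 and IL12A hold no annotated exon bases and are given whole, while NF-kappaB matches of IL32, IL15RA and TSLP and an AP-1 match of IL15RA are given within 30 bases. Other windows and matches, those of IL4R included, are not shown.
IL23A, chr12:56338634-56338883, plus strand: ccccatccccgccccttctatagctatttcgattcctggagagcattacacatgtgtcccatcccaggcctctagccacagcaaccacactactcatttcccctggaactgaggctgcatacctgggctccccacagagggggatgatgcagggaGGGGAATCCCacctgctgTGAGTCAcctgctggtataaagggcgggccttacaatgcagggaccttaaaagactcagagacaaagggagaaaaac
IL24, chr1:206897193-206897442, plus strand: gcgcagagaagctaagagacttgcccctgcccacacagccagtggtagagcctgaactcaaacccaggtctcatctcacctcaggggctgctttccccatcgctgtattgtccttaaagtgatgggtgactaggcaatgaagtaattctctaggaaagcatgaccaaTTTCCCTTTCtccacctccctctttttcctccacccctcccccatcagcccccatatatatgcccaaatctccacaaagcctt
IL12A, chr3:159988585-159988834, plus strand: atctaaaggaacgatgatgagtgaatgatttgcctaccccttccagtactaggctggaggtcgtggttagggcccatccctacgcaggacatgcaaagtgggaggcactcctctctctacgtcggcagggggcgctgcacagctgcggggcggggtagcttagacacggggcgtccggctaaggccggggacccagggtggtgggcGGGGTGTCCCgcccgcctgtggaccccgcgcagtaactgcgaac
IL32, chr16:3065294-3065323, plus strand: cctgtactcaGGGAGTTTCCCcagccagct
IL15RA, chr10:5977780-5977809, minus strand: gcggaggaccGGGAGGCTCCCgggcttgcg
IL15RA, chr10:5977649-5977678, minus strand: gggtggggacgcTGAGTCAcggatctgtca
TSLP, chr5:111071512-111071541, plus strand: aggaaggtgaGGGAAATTCCtgatgacttt

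In IL23A the NF-kappaB match GGGGAATCCC lay at -95 to -86 from the start site and the AP-1 match TGAGTCA at -77 to -71, without overlap, and this RefSeq window lies inside the span that GENCODE 44 gives the gene. The IL24 window held the interferon-response core on the opposite strand, as TTTCCCTTTC, at -83 to -74 and none of the other motifs. IL32 held an NF-kappaB match like IL23A, and so did IL12A, IL15RA and IL4R, which were not called, and TSLP, which was not tested. The NF-kappaB matches of IL32, IL15RA, IL4R and TSLP also lie inside the GENCODE 44 spans of these genes. Of the 250 bases in each of these windows, 106, 85, 250 and 55 are annotated exon bases, in that order. Among the NF-kappaB matches only that of IL12A lies before the span of its gene. The IL15RA windows also held AP-1 and the STAT site, and IL7R held none of the motifs. At least 1 window with an NF-kappaB match was found for 6 of the 8 genes, in 6 of the 14 windows, against 9.96% of the 35116 windows of the whole table. AP-1 was matched in 4 of the 14 windows, from 2 genes, against 6.57% of all windows. The interferon-response core and the STAT site were each matched in 1 window, against 3.02% and 6.57% of all windows. Some IL15RA windows overlap and hold the same AP-1 site, so windows are not independent, and a gene can have several. All motifs named are matches of letters, and binding was not measured.

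The partner receptor chains listed for these cytokines and for IL4R were mostly near 0. Of 11 such chains, 3 entered the test, and IL13RA2 and IL22RA1 were called higher, where 5.20% of all tested genes were called higher. IL13RA2, which binds IL-13 with high affinity and is regarded as a decoy receptor, was at 0.515, 0.178 and 0.654 RPKM in shRNA-NC and at 31.2, 24.6 and 25.2 RPKM in shRNA-UBC9. The groups were far apart, with a log2 fold change of 5.74 (SE 0.326, limma adjusted p = 1.96e-05) that ranked 14 among all tested genes. Recovered reads of IL13RA2 were 10 to 36 per library in shRNA-NC and 1158 to 1829 in shRNA-UBC9.

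IL13RA1, the signalling chain that pairs with IL4R, was at 7.82, 9.53 and 9.17 RPKM in shRNA-NC and at 7.73, 8.53 and 8.84 RPKM in shRNA-UBC9, with a log2 fold change of -0.076 (95% interval -0.317 to 0.165, limma adjusted p = 0.600). The ratio of IL13RA2 to IL13RA1 was at most 0.0713 in shRNA-NC and at least 2.86 in shRNA-UBC9. The ratio of IL4R to IL13RA1 was 0.973, 0.811 and 0.719 in shRNA-NC and 1.62, 1.43 and 1.47 in shRNA-UBC9. In both ratios the groups did not overlap.

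IL22RA1, one of the chains that pair with IL20RB to bind IL-24, was at 0.347, 0.547 and 0.708 RPKM in shRNA-NC and at 1.189, 1.805 and 1.203 RPKM in shRNA-UBC9. Its log2 fold change was 1.26 (SE 0.260, limma adjusted p = 0.00697), and it was not called with a pseudocount of 1, at 0.642. IL20RB was below the filter, with 0.152 to 0.287 RPKM in shRNA-NC and 0.215 to 0.381 RPKM in shRNA-UBC9. IL20RA had at most 2 recovered reads in any library. The chains for IL-12 and IL-23 were low too, with IL23R listed at 0 in every sample, IL12RB2 at most at 0.027 RPKM and IL12RB1 at most at 0.187 RPKM. IL12RB1 was at 0.0234, 0.0672 and 0.0344 RPKM in shRNA-NC and at 0.187, 0.185 and 0.0825 RPKM in shRNA-UBC9. These values stand for 3, 10 and 5 reads and for 29, 28 and 10 reads, and the gene was below the filter and not tested. IL2RG, the chain shared by the receptors for IL-4, IL-7 and IL-15, had 1, 15 and 15 recovered reads in shRNA-NC and 37, 21 and 6 in shRNA-UBC9. It was lowest in the same pair of libraries in which PTPRC, CD3E and LYZ were listed at 0, and the part of other cells in this was not tested.

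**Figure D3:**
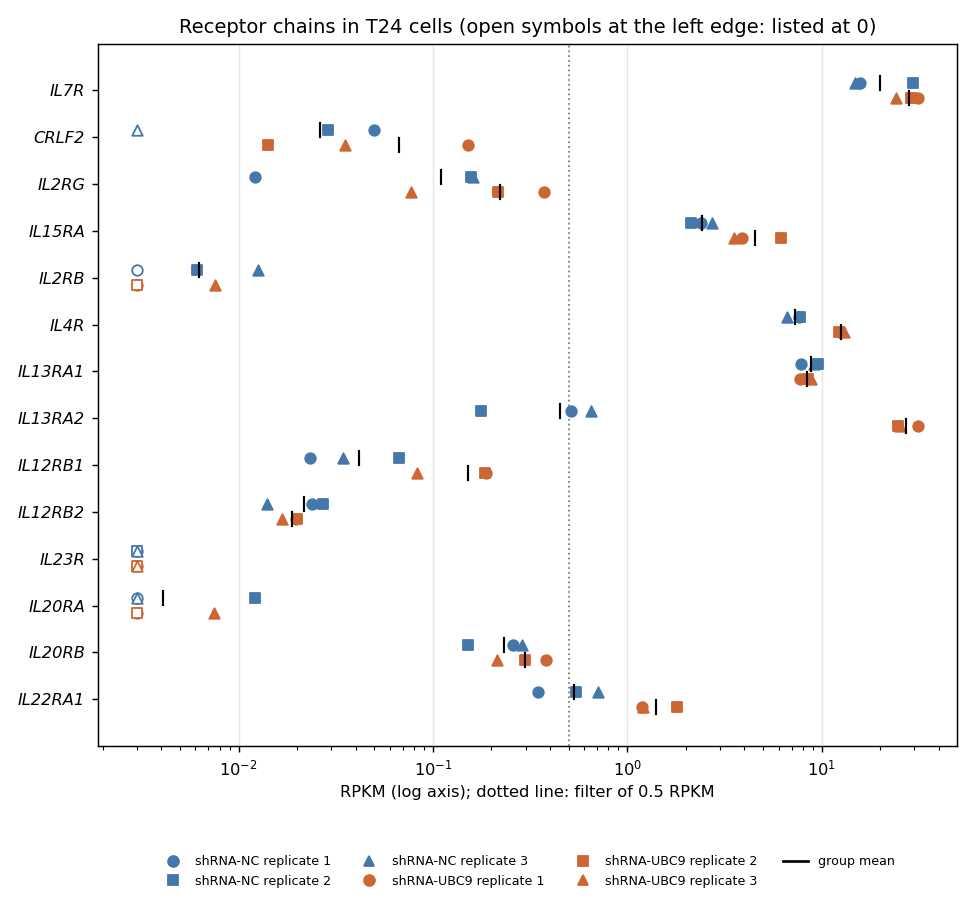
RPKM of the receptor chains of the 10 genes and their partners in each sample, on a log axis, with open symbols at the left edge for values listed at 0. Colours, shapes, black lines and the dotted line are as in the plot of the interleukin genes. IL7R, IL15RA, IL4R and IL13RA1 exceed 2 RPKM in both groups, IL13RA2 exceeds 24 RPKM in shRNA-UBC9 only, and most other chains stay below 0.5 RPKM.

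Among 15 JAK, STAT and feedback inhibitor genes, 12 were tested, and 2 were called higher and 1 lower. Of all tested genes, 5.20% were called higher and 2.70% lower. With no minimum fold change, 4 passed as higher and 1 as lower, against 18.8% and 18.0% of all tested genes. STAT2 was among these 4, with a log2 fold change of 0.848 (limma adjusted p = 0.0182). SOCS3 was among those called higher, and SOCS2 was called lower. SOCS3, an inhibitor that STAT factors induce, was at 9.33, 8.41 and 7.52 RPKM in shRNA-NC and at 11.9, 20.7 and 20.5 RPKM in shRNA-UBC9. The groups did not overlap, and a log2 fold change of 1.02 (limma adjusted p = 0.00637) put it just above the cutoff. It fell below the cutoff without shRNA-NC replicate 3 (0.947), shRNA-UBC9 replicate 2 (0.889) or shRNA-UBC9 replicate 3 (0.896), and also with median scaling (0.982), quantile normalization (0.992) and a pseudocount of 1 (0.954). SOCS2, which restrains STAT5 signalling, was at 7.02, 7.70 and 6.87 RPKM in shRNA-NC and at 2.63, 2.46 and 2.51 RPKM in shRNA-UBC9, with a log2 fold change of -1.47 (limma adjusted p = 3.06e-05). STAT6, which acts below IL4R, was at 13.6 to 15.6 RPKM in shRNA-NC and at 14.9 to 16.6 RPKM in shRNA-UBC9 and was not called. For STAT5A and STAT5B, which act below IL-7 and IL-15, the log2 fold changes were -0.087 and -0.217, and neither was called.

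Of 21 other interleukin ligand genes, 13 were listed at 0 in every sample and only IL17D entered the test, with a log2 fold change of -0.235 (limma adjusted p = 0.378). IL17C, an epithelial cytokine below the filter, had 0, 1 and 1 recovered reads in shRNA-NC and 11, 7 and 1 in shRNA-UBC9. Of 13 other interleukin receptor genes, 4 were tested and none was called in limma. IL10RB and IL17RA had an adjusted p-value below 0.05 as higher, as did 18.8% of all tested genes. IL10RB, the shared chain of the IL-10 and IL-22 receptors, was at 4.48, 4.99 and 5.30 RPKM in shRNA-NC and at 7.21, 7.23 and 6.26 RPKM in shRNA-UBC9. Over all 60 partner genes, 20 were tested, and 4 were called higher and 1 lower. Of all tested genes, 5.20% were called higher and 2.70% lower. The median log2 fold change was 0.162 over the tested partner genes and 0.0048 over all tested genes.

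The genes whose log2 values followed each tested gene most closely over the 6 samples had Pearson correlations between 0.981 and 0.999, as a description of points that share the difference between the groups. They were TRIM36 and LCMT1 for IL24, MAP2K3 and LAT2 for IL32, P3H4 and MOCS3 for IL23A, and SBNO2 and ATG101 for IL4R. SPATS2L and CARS2 were closest to IL15RA, CASZ1 and HIST2H2AA4 to IL7, and AC005562.1 and STAT3 to IL7R. SECTM1 and CNP were closest to IL12A and LZIC and AP3S1 to IL15. HIST2H2AA4 has near-identical copies, so its value is uncertain.

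**Figure D4:**
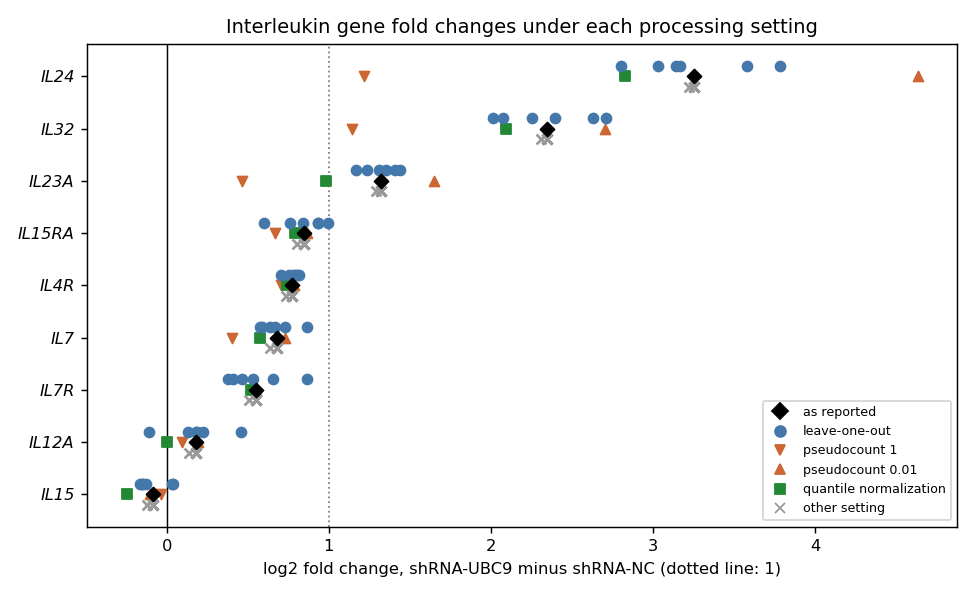
Log2 fold change of each of the 9 tested genes as reported (black) and under each alternative setting, with blue circles for fits that leave out 1 sample, orange triangles for other pseudocounts, green squares for quantile normalization and grey crosses for other settings. IL24 spans 1.22 to 4.63 and IL23A 0.464 to 1.65, both between the pseudocounts of 1 and 0.01, whereas IL4R stays between 0.704 and 0.816.

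On GRCh38 (GENCODE 44), IL24 (ENSG00000162892) spans chr1:206897443-206904139, IL32 (ENSG00000008517) chr16:3065297-3082192 and IL23A (ENSG00000110944) chr12:56334174-56340410, all on the plus strand. IL15RA (ENSG00000134470) spans chr10:5943639-5978187 on the minus strand, 32502 bases from IL2RA, which was listed at 0 in every sample. IL4R (ENSG00000077238) spans chr16:27313668-27364778, 37396 bases from IL21R, which did not exceed 0.011 RPKM. IL7R (ENSG00000168685) spans chr5:35852695-35879603 and TSLP (ENSG00000145777) chr5:111070062-111078026. IL12A (ENSG00000168811) spans chr3:159988835-159996019 and IL15 (ENSG00000164136) chr4:141636583-141733987, both on the plus strand, and IL7 (ENSG00000104432) spans chr8:78675743-78805523 on the minus strand.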

How the data were processed

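Per the labels and the methods of the study, RNA from T24 cells (3 shRNA-NC and 3 shRNA-UBC9 samples) was sequenced from TruSeq libraries, and the authors mapped trimmed reads to GRCh38 (hg38) with the CLC Biomedical Genomics Workbench. The deposited values are RPKM for 58174 genes per sample. The annotation release and the handling of strand and of multiply mapped reads are not given in the sources used here.

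Values were taken to log2(RPKM + 0.1), which understates the change of low genes. Genes at 0.5 RPKM or more in at least 3 of 6 samples were fitted together with limma 3.58.1 in R 4.3.3 (intensity trend, no block, Benjamini-Hochberg adjustment over 12428 genes), the cutoff following the results of the study. Adjusted p-values come from this fit or, where a changed setting is named, from its repeat. Relative depth is the commonest ratio between the low values of a pair of samples, and reads are the smallest whole numbers that fit all 6 samples within 0.02 read. Whether these are reads or read pairs is not given, they are not independent molecules, and absolute depth is unknown. Genes were named by a rule covering the 10 genes, called partners, receptor chains and the 2 closest genes by correlation. The 10 genes, the 60 partner genes and the markers were chosen with earlier results of these data known. In simulated data for 12428 genes, of which 200 were given a log2 change of 2, the test found 191 of them and called 3 others. The simulated noise was normal, with spreads shuffled over genes, so this recovery need not hold for genes near 0 such as IL24. Alternatives covered pseudocount, filter, scaling, trend, block, threshold and left-out samples. Python 3.11.15, scipy 1.17.1 and matplotlib 3.10.9 were used elsewhere. A few genes are not reported here, and those that belong to a list stay in its counts and sums.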

Additional observations from a re-analysis of the deposited data

How the results depend on the processing

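The 3 genes called higher, IL23A, IL24 and IL32, were called in all 6 fits that left out a sample (3 calls in each). Requiring at least 1 RPKM in all 6 samples removed them from the test and left 0 calls, and dropping the minimum fold change gave 6. IL24 and IL32 were called under every other alternative. IL23A was not called with a pseudocount of 1 (log2 fold change 0.464) or with quantile normalization (0.981). The sign turned for genes that were not called. IL15 moved from -0.086 to 0.042 without shRNA-NC replicate 3 and to 0.034 without shRNA-UBC9 replicate 3, and IL12A from 0.178 to -0.109 without shRNA-UBC9 replicate 2. With each sample left out in turn, IL15 ranged from -0.163 to 0.042 and IL12A from -0.109 to 0.457. The partner genes called higher, 4 as reported, numbered 2 with a pseudocount of 1, 2 with at least 1 RPKM in all samples, 8 with no minimum fold change and 3 to 4 with a sample left out. The cause of these changes was not tested beyond the genes that a filter removes. Over all tested genes, 646 were called higher and 335 lower, and 391 and 161 with a pseudocount of 1. With at least 1 RPKM in all 6 samples, 342 were called higher and 210 lower. Without a minimum fold change, 2339 and 2237 passed. Samples with the same replicate number did not deviate together (correlations of -0.367, 0.073 and -0.17). These correlations were not compared with those of other pairs, and a batch shared within or across the numbers was not tested. With the replicate block, 642 genes were called higher and 332 lower, again 3 of the interleukin genes and 4 and 1 of the partner genes. The pair of libraries listed at 0 for PTPRC, CD3E and LYZ was set apart once the values had been seen, by 3 of 9 leukocyte markers. CD14 was detected in both, and the list summed to 0.747 and 0.792 RPKM there, so the pair is not free of leukocyte markers. Most of these sums was CD14. Without CD14 the list summed to 0.0894 and 0.0407 RPKM in the pair and to 0.711 to 1.23 RPKM in the other libraries. Between the libraries of the pair, without a test, the log2 difference was 2.41 for IL24, 2.43 for IL32 and 1.80 for IL23A. Nothing is drawn from this about the source of the RNA. Depth limits TSLP and most receptor chains, which rest on a few reads per library.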
